A study of Homo sapiens with 8 samples.

Results

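Silencing of the LOXHD1 enhancer with a single guide was examined here in SK-N-MC cells kept in hypoxia. The comparison used 4 of the 8 libraries of the series, 2 of eKD1 cells and 2 of control cells, and 10718 of the 60332 genes in the table, namely those that reached 5 FPKM in 2 or more of these 4 libraries. FPKM is an expression level in fragments, corrected for the length of the transcript and for the number of mapped reads in the library. SK-N-MC is an established Ewing sarcoma cell line. All cells carried a lentiviral dCas9-KRAB vector, in control cells as the empty vector, in eKD1 and eKD2 cells with a guide (a different one for each) to the region of the GGAA repeat. All were puromycin-selected pools of the line. Control, eKD1 and eKD2 cells were held for 16 h at 1% oxygen, and a further pair of control libraries came from normoxia. eKD1 is thus 1 guide in 1 stable pool, and no eKD library from normoxia was analysed here. The duplicates of a group share that pool, so p-values measure the spread between these libraries only. Values of a pair are given below as replicate 1, then replicate 2.

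dCas9-KRAB binds DNA without cutting it and recruits repressive chromatin, which can shut down an enhancer and the gene it drives. In Ewing sarcoma the fusion protein EWSR1::FLI1 binds runs of GGAA and turns them into active enhancers. LOXHD1, otherwise known as a protein of the hair bundles of the inner ear, carries repeated PLAT domains. Cells under shortage of amino acids, protein misfolding or low oxygen switch on an integrated stress response, in which the factor ATF4 raises genes for amino acid synthesis, import and tRNA charging. Low oxygen also stabilises HIF1α, which raises glycolytic enzymes, glucose transporters and angiogenic factors.

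LOXHD1 (ENSG00000167210.16_2, chr18:44056935-44237183 on the minus strand, GRCh37) fell to 17.6% of its control level. It stood at 93.0 and 91.1 FPKM in control cells and at 17.3 and 15.0 FPKM in eKD1 cells, a log2 change of -2.44 (SE 0.101; adjusted p = 0.00731, limma). Groups did not overlap, and the gap between them was far wider than the spread within either pair. Without control replicate 1 the log2 change was -2.43 (adjusted p = 0.197), and without control replicate 2 it was -2.46 (adjusted p = 0.184), so the value held but not the call. In normoxia the control level was 156 and 169 FPKM, and in eKD2 hypoxia it was 11.7 and 11.8 FPKM. The direct test of eKD1 against eKD2, which holds no control library, did not separate the pools for LOXHD1 (log2 difference 0.43, adjusted p = 0.123). Of 19 listed genes in the neighbourhood of LOXHD1, 12 were tested and LOXHD1 was the only one called, where 1.14% of all genes were called. At that share so few genes would seldom give a call, so the lack of others cannot show that the neighbours were unchanged. Without overlap 4 lay higher and 3 lower, LOXHD1 among the lower (over all genes 30% and 27.6%). The list's median log2 change of -0.05 turned to 0.02 when the libraries were set to equal FPKM totals and was -0.12 without eKD1 replicate 1.

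Over all genes 122 passed an adjusted p under 0.05 (1.14% of those tested), 53 higher (0.494%) and 69 lower (0.644%) in eKD1. Of these 98 are protein-coding, 47 higher and 51 lower, and 10 belong to small RNA classes. The counts and shares include genes that passed the filter through 1 group alone, so that their direction was fixed beforehand. Among them are the 12 falls listed at 0 in both eKD1 libraries and AL035681.1. RAB6C-AS1, AC233728.1, PPP1R10 and RNA5SP82 are such rises. The median log2 change of all genes was 0.01. Most calls sit close to the threshold. Unadjusted p under 0.05 was reached by 1496 genes higher (14%) and 1262 lower (11.8%), and 3217 genes lay higher (30%) and 2955 lower (27.6%) in both eKD1 libraries than in both control libraries. The count rests on all 4 libraries: without control replicate 1 limma called 1 gene, without control replicate 2 it called 0 (1595 at an unadjusted p under 0.05), without eKD1 replicate 1 it called 14 and without eKD1 replicate 2 it called 9. Of the 122 genes themselves 0 were still called without either control library, and 10 and 8 without either eKD1 library, while all kept their direction wherever they were tested. Scaling moved the balance of directions, since 43.4% of calls were higher in eKD1 as deposited, 61.0% with equal FPKM totals (105 higher, 67 lower) and 36.3% after median-of-ratios rescaling (74 higher, 130 lower).

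**Figure D1:**
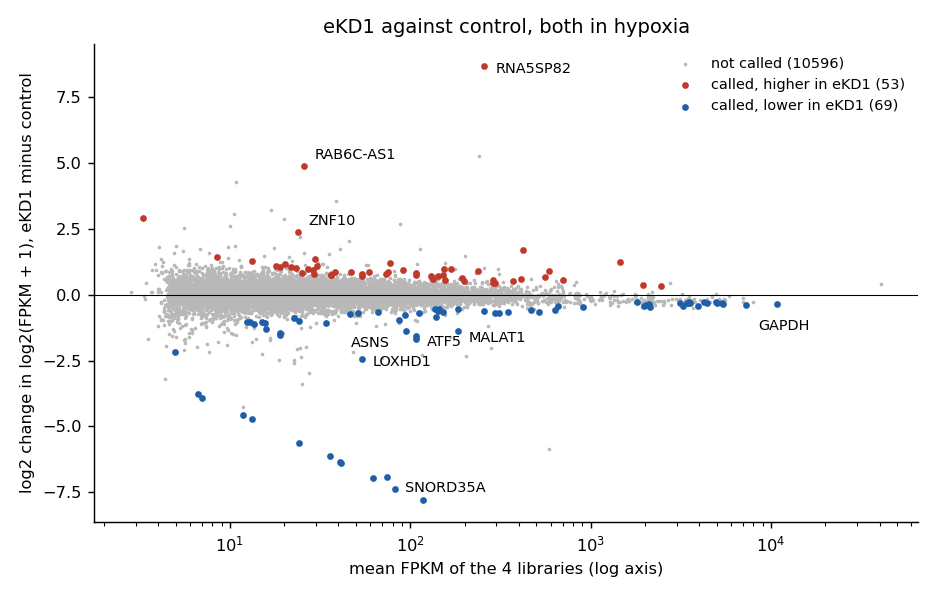
Log2 change (eKD1 minus control, hypoxia) of each of the 10718 genes against its mean FPKM over the 4 libraries on a log axis. The 53 genes called higher and the 69 called lower are coloured, the rest grey, and LOXHD1 stands at -2.44.

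The eKD1 libraries were shallower than the controls. Absolute depth is unknown, since the table gives no read totals, but relative depth read from the low values was 82.7% and 61.2% of control replicate 1 in eKD1 and 96.1% in control replicate 2. FPKM sums ran from 962912 to 1041457 in the 4 libraries. Pearson correlation of log2 values over the genes kept was 0.9601 within the control pair, 0.9469 within the eKD1 pair and 0.939 to 0.9481 between them, as a description. All 10 Ewing sarcoma markers reached 5 FPKM in every library. Summed levels of 10 leukocyte markers were 8.62 and 11.95 FPKM in control and 15.5 and 14.2 FPKM in eKD1 cells, with CD3E, CD3D, MS4A1, NKG7 and HBB at 0. PTPRC, the only 1 of them tested, was at 4.87 and 5.39 against 10.0 and 9.59 FPKM (log2 change 0.82, not called). In normoxia PTPRC was at 22.5 and 23.8 FPKM. CD68 was at 2.93 and 5.98 against 3.30 and 1.91 FPKM.

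Among coding genes the largest called falls after LOXHD1 were mostly in genes of the integrated stress response and of amino acid metabolism. Of the 63 tested members of 4 lists (stress regulators, amino acid synthesis, amino acid transport and cytosolic tRNA synthetases), 10 were called lower and 0 higher, and 39 lay lower and 5 higher without overlap between the groups. Over all genes kept 0.644% were called lower and 0.494% higher, and 27.6% lay lower and 30% higher without overlap. In eKD2 against control, a comparison that shares the control libraries, 40 of the 63 were called higher and 1 lower, where 21.5% of all genes were called (2306). Tested directly without any control library, 32 of the 63 were lower in eKD1 than in eKD2 and 0 higher, where 2.09% of all genes were called (224). The lists were chosen with earlier results of these data known, so these counts describe their members and are not independent support. In bulk RNA, fewer cells expressing a gene and less RNA per cell cannot be told apart.

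Of 17 stress regulators 4 were called lower and 0 higher, at a median log2 change of -0.33. ATF5 (ENSG00000169136.10_3, chr19:50431959-50437192), a stress-responsive relative of ATF4, stood at 164 and 164 FPKM in control cells and 48.5 and 52.4 FPKM in eKD1 cells. It fell to 30.7% of control (log2 change -1.68, SE 0.0737; adjusted p = 0.00794, limma). Its eKD2 values, 207 and 214 FPKM, were above every control value, and the eKD1 pair was below both normoxia values of 83.0 and 85.2 FPKM. The gene overlaps IL4I1 and NUP62 in the annotation, and the unstranded kit and the sharing of reads between overlapping genes make such values less certain.

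DDIT3, the pro-apoptotic factor CHOP, was at 141 and 136 FPKM in control and 55.8 and 49.1 FPKM in eKD1 cells (log2 change -1.38, adjusted p = 0.0280, limma). It overlaps MARS, itself a stress-responsive gene. TRIB3, a pseudokinase that binds and restrains ATF4, was at 22.4 and 23.6 FPKM against 7.98 and 9.59 FPKM (log2 change -1.30, adjusted p = 0.0461). In all of these the eKD1 libraries were low and apart from the controls, while eKD2 was high, with DDIT3 at 198 and 205 FPKM and TRIB3 at 36.0 and 37.3 FPKM. CHAC1, an enzyme that degrades glutathione, lay below control in eKD1 and above it in eKD2. Control cells had 21.4 and 21.7 FPKM, eKD1 cells 10.2 and 9.04 FPKM, and eKD2 cells 80.9 and 87.2 FPKM. The log2 change in eKD1 was -1.09 (adjusted p = 0.0461) and the direct log2 difference from eKD2 was -3.001 (adjusted p = 0.00795, limma).

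ATF4 mRNA itself did not pass the test. Its level was 331 and 333 FPKM in control and 319 and 304 FPKM in eKD1 cells, a log2 change of -0.09 with SE 0.0534 (adjusted p = 0.344). In eKD2 cells it was at 381 and 405 FPKM and was called higher than control (log2 change 0.24, adjusted p = 0.0428), while the direct test of the guides missed (log2 difference -0.34, adjusted p = 0.0657). ATF4 is controlled largely by translation, which these libraries do not measure. SESN2 (sestrin 2, a stress-induced inhibitor of mTORC1) was at 12.1 and 13.97 FPKM against 5.45 and 5.40 FPKM and just missed (log2 change -1.13, adjusted p = 0.0548). PPP1R15A, the subunit that ends the stress response by dephosphorylating eIF2α, was at 37.3 and 39.0 against 21.8 and 24.7 FPKM (log2 change -0.69, adjusted p = 0.0633). ATF3, another stress-induced factor, overlapped between the groups at 36.4 and 38.0 against 29.9 and 38.6 FPKM, although it stood at 180.5 and 151 FPKM in eKD2 cells.

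**Figure D2:**
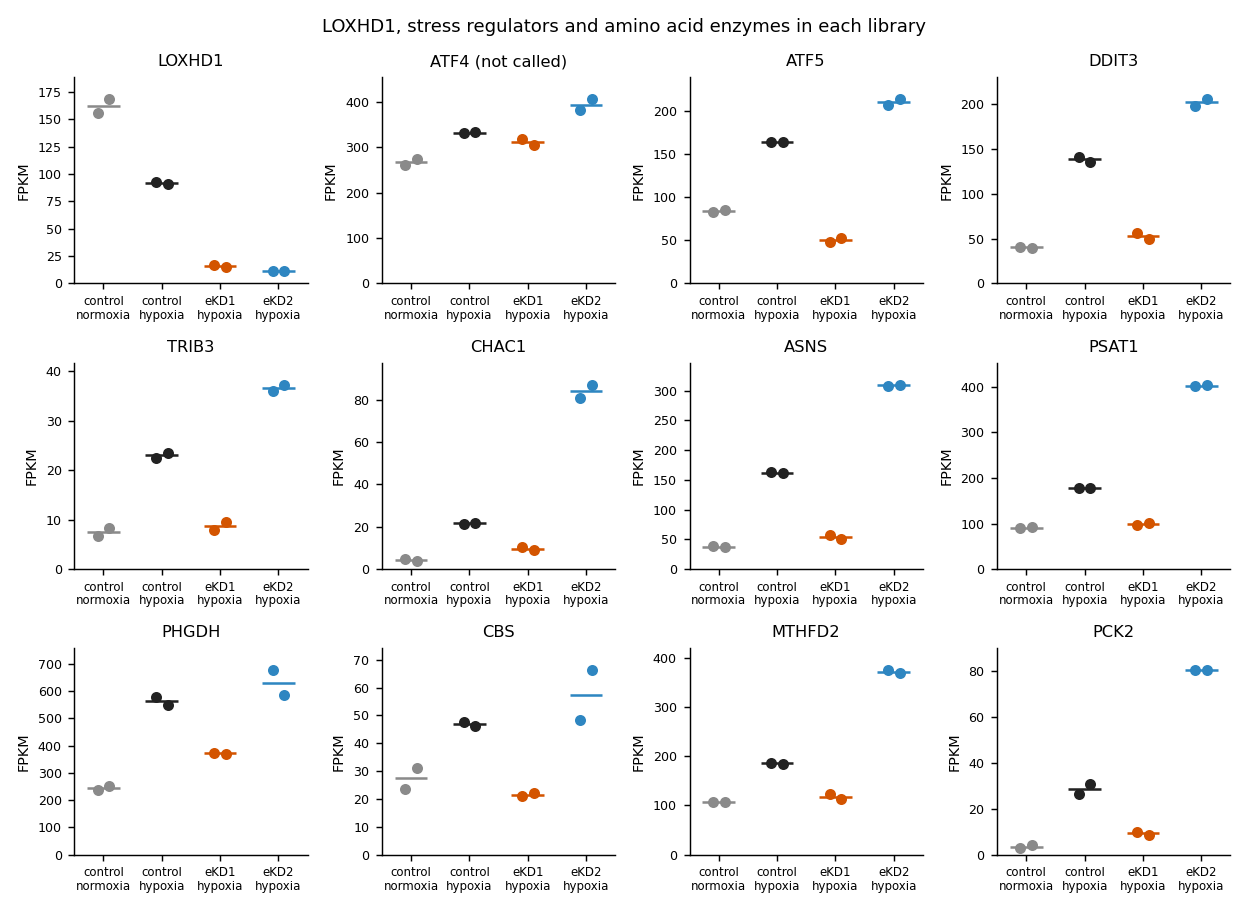
FPKM in each library of control normoxia, control hypoxia, eKD1 hypoxia and eKD2 hypoxia for LOXHD1 and 11 stress and amino acid genes, each panel on its own linear axis from 0, with a line at the mean of the 2 libraries. LOXHD1 is low in both eKD pools, whereas ATF5, DDIT3, TRIB3, CHAC1, ASNS, PSAT1, MTHFD2 and PCK2 are below control in eKD1 and above it in eKD2. ATF4 is at 319 and 304 FPKM in eKD1, close under control, and at 381 and 405 FPKM in eKD2.

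Amino acid synthesis genes had the lowest list median, a log2 change of -0.52 over 15 tested, with 5 called lower and 0 higher, and 11 of 15 lower without overlap. ASNS, which makes asparagine (ENSG00000070669.16_3, chr7:97480989-97501854), was at 164 and 161 FPKM in control and 57.7 and 50.6 FPKM in eKD1 cells. It fell to 33.4% of control (log2 change -1.57, SE 0.0894; adjusted p = 0.01998, limma) and was at 308 and 309.7 FPKM in eKD2. The eKD1 values remained above the normoxia values of 38.6 and 37.1 FPKM. PHGDH and PSAT1, the first enzymes of serine synthesis, fell as well. PHGDH was at 579.7 and 549 against 373 and 371 FPKM (log2 change -0.60, adjusted p = 0.0446) and PSAT1 at 178 and 178 against 96.6 and 101 FPKM (log2 change -0.84, adjusted p = 0.0350). PSPH, the last enzyme of that path, was at 47.4 and 47.0 against 27.3 and 33.2 FPKM and did not pass (adjusted p = 0.0765).

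MTHFD2, a mitochondrial enzyme of folate metabolism, was at 186 and 185 FPKM in control and 123 and 113 FPKM in eKD1 cells (log2 change -0.65, adjusted p = 0.0494). CBS, which starts the conversion of homocysteine to cysteine, was at 47.6 and 46.2 against 21.1 and 22.1 FPKM (log2 change -1.09, adjusted p = 0.0372). Both pairs are tight and apart. For CBS the eKD2 pair spread from 48.4 to 66.2 FPKM and the direct test just missed (log2 difference -1.35, adjusted p = 0.0501). Outside the lists, PCK2, the mitochondrial enzyme that makes phosphoenolpyruvate, fell from 26.6 and 30.6 to 9.71 and 8.72 FPKM (log2 change -1.53, adjusted p = 0.0381), with eKD2 at 80.3 and 80.3 FPKM. ASS1, the arginine-making argininosuccinate synthase, fell from 110.5 and 118 to 61.1 and 55.7 FPKM (log2 change -0.96, adjusted p = 0.0461).

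Transport and charging of amino acids gave fewer calls. Of 11 transporters tested 0 were called, with a median log2 change of -0.25 (-0.15 without control replicate 1). SLC7A5 and SLC3A2, the light and heavy chains of the large neutral amino acid transporter, just missed. SLC7A5 was at 52.9 and 48.2 against 30.0 and 27.3 FPKM (adjusted p = 0.0532) and SLC3A2 at 229.9 and 231 against 152 and 165 FPKM (adjusted p = 0.0547). SLC7A11, the cystine importer, overlapped between the groups at 6.42 and 6.05 against 4.56 and 7.24 FPKM but was at 58.4 and 55.7 FPKM in eKD2 (direct log2 difference -3.10, adjusted p = 0.0198). Of 20 tRNA synthetases 1 was called lower and 0 higher (over all genes 0.644% and 0.494%). Without overlap 9 were lower and 1 higher (over all genes 27.6% and 30%). The median log2 change was -0.16 (-0.09 with equal FPKM totals), with 11 members below 0 and 9 above it. The called gene was GARS, glycyl-tRNA synthetase, at 215 and 220.3 against 151 and 148 FPKM (log2 change -0.54, adjusted p = 0.0461). The next 3 calls lie outside the lists and were singled out after their values were seen. EIF4EBP1, the cap-binding inhibitor 4E-BP1, fell from 750.3 and 751 to 558 and 567 FPKM (log2 change -0.42, adjusted p = 0.0461). EIF1, which guards start codon choice, fell from 1059 and 1066 to 776 and 743 FPKM (log2 change -0.48, adjusted p = 0.0461). EIF4G1, the scaffold of the cap-binding complex, rose from 324 and 331 to 484 and 513 FPKM (log2 change 0.60, adjusted p = 0.0461).

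Promoters of these genes were searched for the letters TGATGNAA on either strand, a core to which ATF4 with a C/EBP partner is known to bind. RefSeq promoters run from 250 bases before to 50 after each start (GRCh38.p14). All 10 called stress and amino acid list members were matched by symbol, and 3 of their 19 promoters held the letters (15.8%), against 227 of 11756 promoters of the genes kept that matched (1.9%) and 1270 of all 35116 (3.6%). Of 46 promoters of genes called higher 0 held them, and of 39 promoters of the other genes called lower 1 did (2.6%). Over all 53 matched members of the 4 lists, called or not, 23 of 87 promoters did (26.4%). The 3 matches among called members are printed with capitals on the match and 20 bases to each side. Each is read on the strand of its gene, the minus strand of the genome for ASNS and the plus strand for CHAC1 and GARS. They stand at chr7:97872449-97872496 for ASNS, chr15:40953242-40953289 for CHAC1 and chr7:30594825-30594872 for GARS.
ASNS: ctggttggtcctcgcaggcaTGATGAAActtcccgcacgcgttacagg
CHAC1: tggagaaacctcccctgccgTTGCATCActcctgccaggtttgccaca
GARS: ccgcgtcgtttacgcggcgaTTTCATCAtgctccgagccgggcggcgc
A match describes the letters only.

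Cytosolic ribosomal proteins, the structural proteins of the ribosome, were lower in eKD1 as a group. All 36 tested lay below both controls, as did 27.6% of all genes, and 11 of the 36 were called lower (0.644% of all genes). Their median log2 change was -0.28 as deposited, -0.21 with equal FPKM totals and -0.31 after median-of-ratios rescaling. As a percentage of the control hypoxia mean, the median member stood at 85.3% and 81.5% in the eKD1 libraries and at 101% and 99.0% in the controls. The corresponding figures were 77.2% and 78.4% in eKD2 and 62.4% and 63.2% in control normoxia. RPL8 was at 8138 and 8271 FPKM against 6388 and 6152 FPKM (log2 change -0.39, SE 0.0301; adjusted p = 0.0372, limma). RPL41, the smallest ribosomal protein, which is no member of the list, was at 791 and 726 against 506 and 503 FPKM (log2 change -0.58, adjusted p = 0.0461). For all 36 the summed level was 132400 and 129940 FPKM in control and 109380 and 105890 FPKM in eKD1 cells. The size of the fall of these very abundant RNAs changed with the scaling of the libraries. The part of scaling or of depth in it was not tested. PABPC1, the poly(A)-binding protein, fell too (3879 and 4002 to 3122 and 3159 FPKM, log2 change -0.33, adjusted p = 0.0461).

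**Figure D3:**
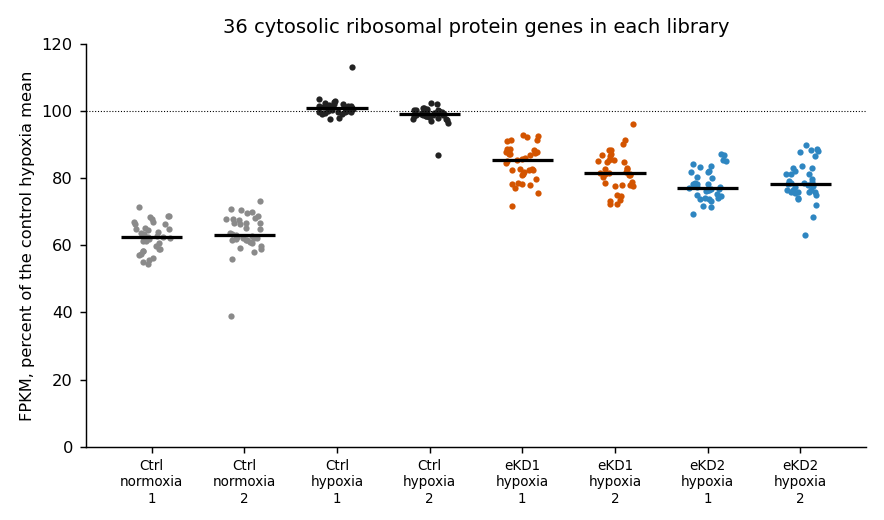
Level of each of 36 cytosolic ribosomal protein genes in each of 8 libraries, as a percentage of that gene's control hypoxia mean, with the median marked. Medians are 85.3% and 81.5% in eKD1 and 101% and 99.0% in control hypoxia.

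Genes of the hypoxia response gave few calls in eKD1. Of 23 tested genes of HIF-driven glucose metabolism 1 was called, GAPDH, and 13 lay lower and 4 higher without overlap. Over all genes kept 1.14% were called, and 27.6% lay lower and 30% higher without overlap. The list's median log2 change was -0.06 as deposited and turned to 0.01 with equal FPKM totals. GAPDH, the glycolytic dehydrogenase, was at 12097 and 12130.0 FPKM in control and 9308 and 9429.6 FPKM in eKD1 cells. It fell to 77.3% of control (log2 change -0.37, SE 0.0217; adjusted p = 0.0208, limma) and stayed above the normoxia values of 4559.8 and 4543 FPKM. The aldolases ALDOC and ALDOA were lower without overlap and just missed: ALDOC was at 145 and 139.7 against 92.2 and 82.2 FPKM (adjusted p = 0.0518) and ALDOA at 8098 and 8286 against 5995 and 6561 FPKM (adjusted p = 0.0563). Neighbouring enzymes of the same path were nearly level, with PGK1 at 4791 and 4749 against 4695 and 4523 FPKM and ENO1 at 5005 and 4901 against 4949.7 and 5029 FPKM. SLC2A1, the glucose transporter GLUT1, lay on the other side, at 78.0 and 78.0 against 106 and 112 FPKM (log2 change 0.47, adjusted p = 0.0625).

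Of 25 other HIF targets 0 were called, and 7 lay higher and 7 lower without overlap (over all genes 30% and 27.6%). Their median log2 change of -0.02 turned to 0.05 with equal FPKM totals and to 0.03 without control replicate 1. P4HA1, a collagen prolyl hydroxylase, was at 117 and 113 against 81.4 and 83.9 FPKM (log2 change -0.47, adjusted p = 0.0620), and VEGFA, the angiogenic growth factor, at 186 and 168 against 124 and 130.3 FPKM (adjusted p = 0.0704). CA9, a membrane carbonic anhydrase listed at 0 in both normoxia libraries, was at 82.8 and 72.0 against 76.6 and 77.5 FPKM, so the groups overlapped. BNIP3, a mitophagy receptor, was barely apart between the groups, at 214 and 208 against 222 and 215 FPKM (log2 change 0.05). Outside the list HILPDA, a lipid droplet protein raised by hypoxia, was called. It fell from 313 and 312 to 203 and 198 FPKM (log2 change -0.64, adjusted p = 0.0381), with 53.6 and 55.9 FPKM in normoxia.

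HIF1A mRNA was at 33.3 and 39.0 FPKM in control and 44.02 and 41.3 FPKM in eKD1 cells, a log2 change of 0.24 (SE 0.110; adjusted p = 0.260, limma). Both eKD1 values lay above both control values, but the difference did not pass the test. Of 13 genes of the HIF pathway 0 were called. CITED2, which competes with HIF1α for its coactivators, was at 226 and 213 against 295 and 321 FPKM (log2 change 0.49, adjusted p = 0.0627). The list's median log2 change of 0.15 turned to -0.02 without control replicate 2.

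Genes that mark Ewing sarcoma were higher more often than lower. The study's signature of Ewing-specific genes was taken without LOXHD1, which belongs to it and was called lower. Of the other 27 members tested, 3 were called higher and 0 lower (over all genes 0.494% and 0.644%). In this list 19 lay higher and 4 lower without overlap (over all genes 30% and 27.6%). The median log2 change was 0.28 (0.42 without eKD1 replicate 1). The study chose that signature on other libraries of this line among others. LIPI, a membrane-bound phospholipase (ENSG00000188992.11_2, chr21:15481134-15583276), was at 10.8 and 11.2 FPKM in control and 23.4 and 26.5 FPKM in eKD1 cells (log2 change 1.10, SE 0.112; adjusted p = 0.0461, limma). ADRB3, the β3 adrenergic receptor, was at 26.1 and 28.1 against 50.5 and 49.1 FPKM (log2 change 0.86, adjusted p = 0.0461). FEZF1, a zinc finger factor of the developing forebrain, was at 39.8 and 42.2 against 67.0 and 68.2 FPKM (log2 change 0.71, adjusted p = 0.0492). ADRB3 differed between the guides, since eKD2 stood at 25.5 and 26.1 FPKM (direct log2 difference 0.92, adjusted p = 0.0313). LIPI, at 21.1 and 19.0 FPKM in eKD2, and FEZF1, at 58.0 and 62.9 FPKM, did not pass that test (adjusted p = 0.196 and 0.265).

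Among 23 other tested genes listed for their link to Ewing sarcoma, 2 were called higher and 0 lower (over all genes 0.494% and 0.644%). Without overlap 12 lay higher and 7 lower (over all genes 30% and 27.6%), and the median log2 change was 0.17. PAX7, a factor of muscle stem cells, was at 26.8 and 26.7 against 47.4 and 44.7 FPKM (log2 change 0.76, adjusted p = 0.0492) and CCND1, cyclin D1, at 566 and 584 against 817 and 859.6 FPKM (log2 change 0.54, SE 0.0492; adjusted p = 0.0461). The 5 called genes of both lists had lower levels in both control hypoxia libraries than in control normoxia (not tested), where LIPI stood at 49.5 and 57.2 FPKM and PAX7 at 54.9 and 54.9 FPKM. Some members pointed down without passing: TNNI3, cardiac troponin I, was at 76.8 and 76.8 against 48.1 and 55.1 FPKM (adjusted p = 0.0703) and CD99, the diagnostic surface protein of this tumour, at 417 and 406 against 305 and 333 FPKM (adjusted p = 0.0704). The fusion's partner genes did not pass, with FLI1 at 20.8 and 22.2 against 23.1 and 25.2 FPKM and EWSR1 at 151 and 162 against 194 and 163 FPKM. Of 17 genes that the fusion is known to repress 0 were called. Their median log2 change of -0.11 was -0.19 without control replicate 2, -0.04 without eKD1 replicate 2 and -0.04 with equal FPKM totals.

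MYC, the growth-promoting factor, rose from 152 and 149 to 230.2 and 241 FPKM (log2 change 0.64, SE 0.0592; adjusted p = 0.0461, limma), near its normoxia level of 209 and 235 FPKM. In the list of ribosome biogenesis and MYC-responsive genes MYC was the only call among 26 tested. Of these 17 lay higher and 2 lower without overlap (over all genes 30% and 27.6%), and the median log2 change was 0.23. TFRC, the transferrin receptor, was at 192 and 154 against 355 and 332 FPKM (log2 change 1.00, adjusted p = 0.0525), and FBL, fibrillarin of the nucleolus, pointed down at 890.5 and 893 against 724 and 710.1 FPKM (adjusted p = 0.0553). Of 26 mitotic genes 1 was called, CCNB1 (cyclin B1), which rose from 104 and 109 to 162 and 163 FPKM (log2 change 0.61, adjusted p = 0.0461). CENPF, a kinetochore protein, pointed the other way at 71.6 and 61.9 against 43.9 and 40.2 FPKM (adjusted p = 0.0699). Of 28 S phase genes 0 were called, and the median log2 change of -0.05 turned to 0.02 with equal FPKM totals.

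**Figure D4:**
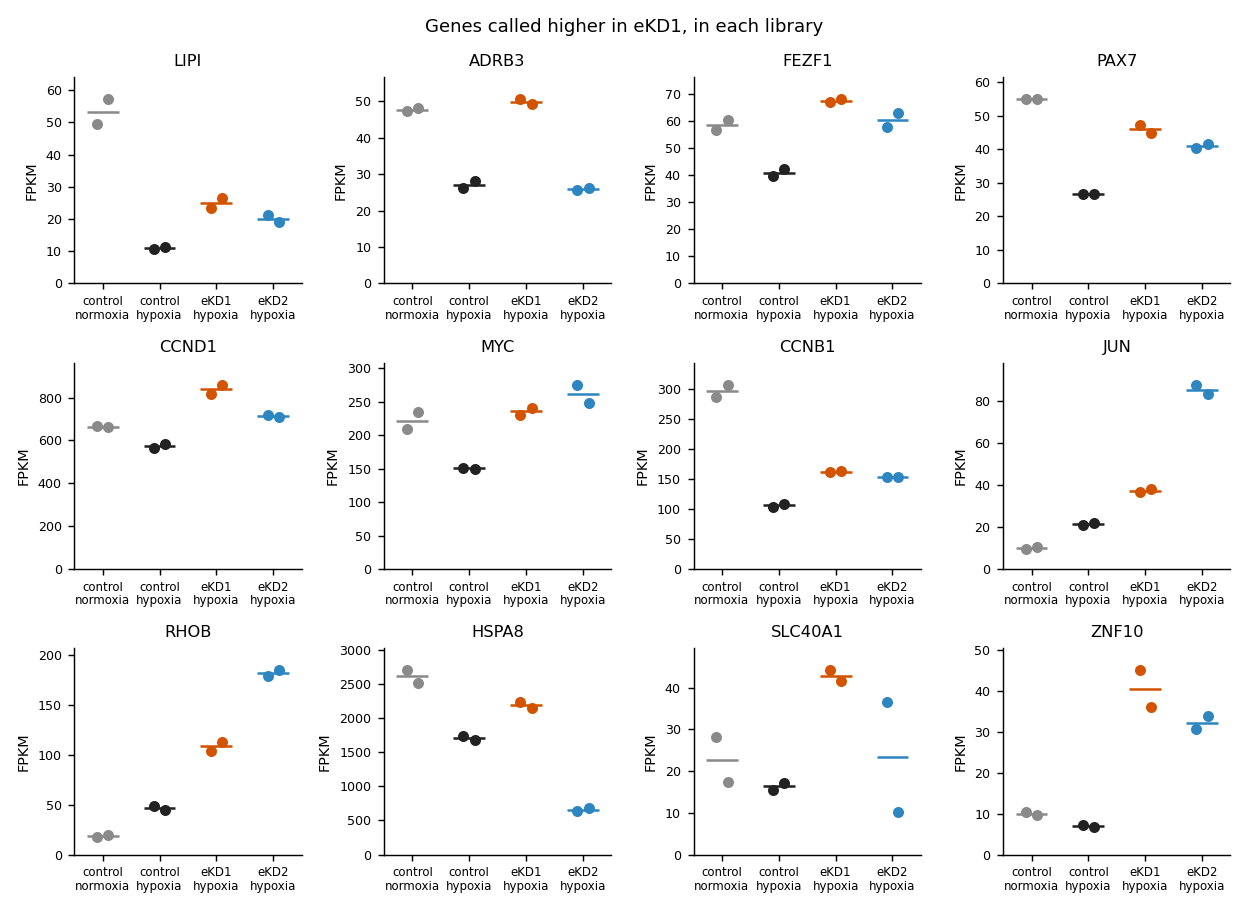
FPKM in each library of the 4 groups for 12 genes called higher in eKD1 than in control hypoxia, each panel on its own linear axis from 0, with a line at the mean of the 2 libraries. LIPI, FEZF1, PAX7, CCND1, MYC and CCNB1 are above control hypoxia in both eKD pools, ADRB3 in eKD1 only, and HSPA8 is above control in eKD1 and below it in eKD2.

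HSPA8, VCP, PSMD1 and TUBB4B, of which the last 3 lie outside the lists and were singled out after their values were seen, were called higher in eKD1 than in control and passed the direct test against eKD2. HSPA8, the constitutive HSC70 chaperone, stood at 1738 and 1687 FPKM in control cells, against 2244 and 2149 FPKM in eKD1 cells, and eKD2 cells had 639 and 679 FPKM. It rose in eKD1 (log2 change 0.36, adjusted p = 0.0494, limma), and the direct log2 difference from eKD2 was 1.74 (adjusted p = 0.00795). VCP, the segregase that feeds proteins to the proteasome, was at 243 and 252 against 338 and 341 FPKM (log2 change 0.45, adjusted p = 0.0497) and at 162 and 178 FPKM in eKD2. PSMD1, a subunit of the proteasome's regulatory particle, was at 81.0 and 79.0 against 138 and 134 FPKM (log2 change 0.76, adjusted p = 0.0446). TUBB4B, a β-tubulin, was at 242 and 245 against 333 and 335 FPKM (log2 change 0.45, adjusted p = 0.0492) and at 144 and 143 FPKM in eKD2. Over the list of cytosolic and mitochondrial chaperones 1 of 19 was called higher, at a median log2 change of 0.14. Without overlap 10 lay higher and 2 lower (over all genes 30% and 27.6%). Directly against eKD2, 8 of the 19 were called higher in eKD1 and 1 lower, where 2.09% of all genes were called. For endoplasmic reticulum folding genes 0 of 22 were called, with 12 higher and 2 lower without overlap (over all genes 30% and 27.6%). Their median log2 change was 0.11 (0.18 without eKD1 replicate 2 and with equal FPKM totals).

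**Figure D5:**
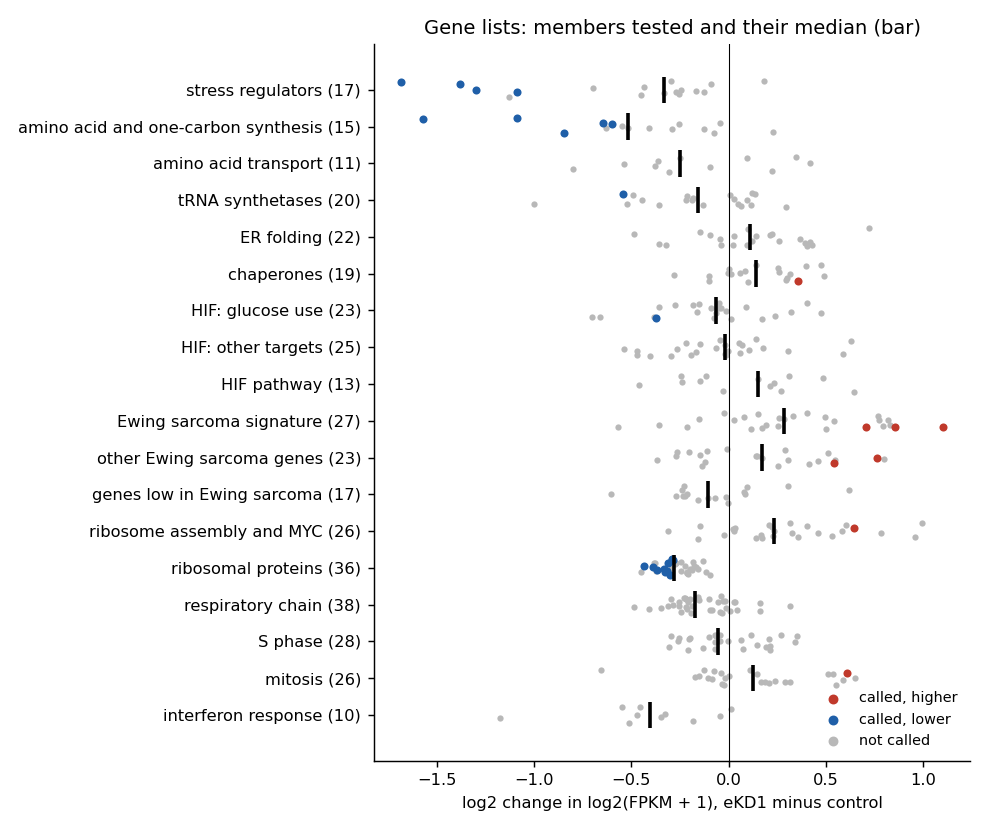
Log2 change (eKD1 minus control, hypoxia) of each tested member of 18 gene lists, with a bar at each list's median and called members coloured. Amino acid synthesis has a median of -0.52, stress regulators -0.33, ribosomal proteins -0.28 and the Ewing signature 0.28.

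The largest rises among called genes, small RNAs aside, were mixed in kind. RAB6C-AS1, a transcribed pseudogene, was at 0.722 and 0.802 FPKM in control and 58.9 and 42.9 FPKM in eKD1 cells (log2 change 4.86, adjusted p = 0.00731, limma), but its normoxia controls read 31.4 and 1.03 FPKM. AC233728.1, a long non-coding RNA, was at 5.63 and 7.62 FPKM in eKD1 cells and listed at 0 in the control hypoxia pair. ZNF10 (ENSG00000256223.5_3, chr12:133707161-133736051) rose from 7.32 and 6.68 to 45.1 and 36.2 FPKM (log2 change 2.37, SE 0.144; adjusted p = 0.0225), with 30.7 and 33.9 FPKM in eKD2. The KRAB domain of dCas9-KRAB vectors commonly comes from ZNF10, so reads of the vector and of the gene cannot be told apart here. Control cells carried the vector too, and its level in each pool was not tested. PPP1R10, a nuclear regulator of protein phosphatase 1, was at 4.39 and 3.84 against 13.9 and 11.8 FPKM (log2 change 1.43, adjusted p = 0.0497). RAB6C-AS1, AC233728.1 and PPP1R10 were under 5 FPKM in both control hypoxia libraries. They passed the filter through the eKD1 pair alone, so their change could only read as a rise.

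SLC40A1, the iron exporter ferroportin, rose from 15.5 and 17.2 to 44.2 and 41.6 FPKM (log2 change 1.34, adjusted p = 0.0350), while the eKD2 pair spread from 10.2 to 36.5 FPKM. FTH1, the heavy chain of the iron store ferritin, fell from 2331 and 2371 to 1823 and 1857 FPKM (log2 change -0.35, adjusted p = 0.0461). Those were the calls among 21 tested genes of oxidative, iron and metal handling, whose median log2 change of 0.02 turned to -0.01 after median-of-ratios rescaling and to -0.06 without control replicate 1. RHOB, a small GTPase, rose from 48.5 and 44.2 to 104 and 113 FPKM (log2 change 1.21, adjusted p = 0.0350) and JUN, a subunit of AP-1, from 21.1 and 21.9 to 36.7 and 38.0 FPKM (log2 change 0.77, adjusted p = 0.0492). Both stood higher again in eKD2, by direct log2 differences of eKD1 from eKD2 of -0.74 and -1.17. HS3ST2, a heparan sulfate sulfotransferase, rose from 7.80 and 6.68 to 18.8 and 19.4 FPKM (log2 change 1.29, adjusted p = 0.0461), GAS1, a hedgehog co-receptor, from 19.6 and 18.7 to 40.6 and 42.7 FPKM (log2 change 1.08, adjusted p = 0.0381) and INTS6, a subunit of the Integrator complex, from 11.03 and 13.4 to 27.2 and 29.7 FPKM (log2 change 1.16, adjusted p = 0.0497).

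Falls outside coding genes were led by RNAs listed at 0. In both eKD1 libraries 12 called genes were at 0, of which 8 were also at 0 in both eKD2 libraries and 7 in both normoxia libraries. Each of the 12 passed the filter through the control hypoxia pair alone, so its change could only read as a fall. For 6 of the 12 the control hypoxia pair held the only values above 0. Those with an annotation measure 86 to 156 nt, where FPKM divides few reads by a short length, and 10 overlap a coding gene. SNORD35A, a small nucleolar RNA inside RPL13A, held 149 and 178 FPKM in the control hypoxia pair and was at 0 in the 6 other libraries. The processed pseudogene AC024995.1, at 309 and 161 FPKM, and C15ORF31, at 17.5 and 9.11 FPKM, likewise had values above 0 in the control hypoxia pair alone. AC007991.2, RPL39P34 and AC099789.1, at 79.5 and 82.8, 29.7 and 17.7, and 13.8 and 14.3 FPKM in control hypoxia, each had values above 0 in at least 1 normoxia or eKD2 library. In the other direction RNA5SP82, a ribosomal RNA pseudogene at the top of the plot of change by level, passed the filter through the eKD1 pair alone. It was at 0 in both controls and at 204 and 827 FPKM in eKD1 cells, a wide spread within the pair. No fold is given against these zeros, and the depth of the eKD1 libraries was lower. AL035681.1, a long non-coding RNA with values in every library, fell from 9.17 and 8.40 to 0.976 and 1.34 FPKM (log2 change -2.18, adjusted p = 0.0461) and was at 13.2 and 14.4 FPKM in eKD2. It too passed the filter through the control hypoxia pair alone.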

How the data were processed

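RNA-seq of SK-N-MC cells was analysed from 1 table of gene FPKM deposited for 8 libraries. Per the labels and the study's methods, the authors prepared poly-A selected, unstranded libraries, mapped the single-end reads to GRCh37 (hg19) with STAR and made the deposited FPKM values with Cuffnorm. How Cuffnorm scaled the libraries is not given in the sources used here. The authors used DESeq2 on counts. The deposited values are FPKM, so limma 3.58.1 in R 4.3.3 was used here.

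Values were taken as log2(FPKM + 1), which understates changes of low genes. A gene was kept where 2 or more of the 4 libraries compared reached 5 FPKM. A separate model per comparison held its 4 libraries (lmFit, and eBayes with trended variance). Two-sided p-values were Benjamini-Hochberg adjusted over 10718 genes, and all adjusted p-values are from limma. Calls have an adjusted p under 0.05. eKD1 and eKD2 share their controls, so the guides were compared by a fit of eKD1 against eKD2.

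Groups came from sample titles. Absolute depth is unknown, so no interval or floor was computed, and relative depth was read from the worth of 1 read among low values. Gene types and coordinates came from GENCODE v44 on GRCh37, matched for 99.4% of genes kept. Promoters are from RefSeq. No mitochondrially encoded gene was analysed here. A genomic sequence and 1 gene are not reported here.

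Named genes were LOXHD1, HIF1A, the 10 top rises and 10 top falls by log2 change of called genes outside small RNA classes, and per list the called members and up to 4 with the smallest p. PCK2 is among these falls. ASS1, HILPDA, EIF1, EIF4EBP1, EIF4G1, SLC7A11, PABPC1, RPL41, VCP, PSMD1, TUBB4B and other genes outside that rule were named after their values were seen. Lists, members and tests were chosen with earlier results of these data known. Alternatives were other pseudocounts, filters, scalings, pooled fits, no variance trend, a replicate block, each replicate left out and coding genes alone. The fit was tested on simulated data.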

Additional observations from a re-analysis of the deposited data

Results flagged for a closer look

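Of the genes named by the rule or in the text, 37 differed between eKD1 and eKD2 by the direct test (adjusted p under 0.05, limma, no control library). Over all genes kept 2.09% were called in that test (224). Some of the named genes were picked after their values were seen, so the 37 is no measure of how often the guides differ. Groups of 2 were too small for a test of single outlying libraries. Values are log2 differences, eKD1 minus eKD2. Lower in eKD1 were genes of stress and amino acid metabolism, with SLC7A11 at -3.10, CHAC1 at -3.001, PCK2 at -2.99, ASNS at -2.49, ATF3 at -2.25, SESN2 at -2.22, ATF5 at -2.04, PSAT1 at -2.02, PPP1R15A at -2.02, TRIB3 at -1.95, SLC7A1 (a cationic amino acid transporter) at -1.93, DDIT3 at -1.92, SLC7A5 at -1.84, PSPH at -1.75, MTHFD2 at -1.65, GARS at -1.56, AARS at -1.56, MARS at -1.47, SLC3A2 at -1.33, SARS at -1.04 and PHGDH at -0.76. AARS, MARS and SARS charge tRNAs with alanine, methionine and serine.

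Other genes lower in eKD1 were AL035681.1, a long non-coding RNA, at -2.78, PMAIP1, the apoptosis gene NOXA, at -1.30, JUN at -1.17, EIF1 at -0.93, EIF4EBP1 at -0.74 and RHOB at -0.74. Higher in eKD1 were HSPA8 at 1.74, its cochaperone DNAJA1 at 1.34, ANGPTL4 (an inhibitor of lipoprotein lipase and HIF target) at 1.22, TUBB4B at 1.21, CCNE1 (cyclin E1) at 1.10, VCP at 0.99, ADRB3 at 0.92, ACTG1 (γ-actin) at 0.65, PSMD1 at 0.64 and COX7C (a subunit of cytochrome c oxidase) at 0.35. ANGPTL4 stood at 71.1 and 76.8 FPKM in eKD1 cells, against 27.9 and 34.9 FPKM in eKD2 and 52.6 and 45.1 FPKM in control cells. ACTG1 and COX7C were not raised over control: their log2 changes from control were -0.18 and -0.24 in eKD1 (not called) and -0.83 and -0.60 in eKD2. The cause of these differences was not tested, and each guide is 1 pool.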

How the results depend on the processing

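Against the 122 genes called in eKD1 against control, limma called 6 without a filter on low values, 23 at a filter of 1 FPKM, 203 at a mean of 10 FPKM, 204 after median-of-ratios rescaling, 681 and 917 in fits that share the spread of 6 hypoxia or all 8 libraries, 15 without a variance trend, 364 among coding genes alone and 0 to 14 with a replicate left out. For eKD2 against control the 2306 calls became 580 without a filter and 33 to 336 with a replicate left out. For eKD1 against eKD2 the 224 calls became 0 without a filter, 99 at 1 FPKM, 111 at a mean of 10 FPKM, 346 with equal FPKM totals, 1327 and 1564 with the shared spread, 48 without a trend, 792 among coding genes and 0 to 44 with a replicate left out. The cause of these shifts was not tested. The replicate number as a block left 12, 1467 and 0 calls in these comparisons. The numbers share no stated litter, day or batch, and deviations of same-numbered control and eKD1 libraries correlated at 0.0623, so the number was not taken to pair them.

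LOXHD1 kept its direction throughout, between -2.54 and -2.34 with a replicate left out. Without a filter its log2 change of -2.44 had an adjusted p of 0.0754. Leaving out control replicate 1 or 2 gave -2.43 (adjusted p = 0.197) and -2.46 (adjusted p = 0.184). No called gene named reversed under any setting run. Uncalled genes near 0 did: ENO1 turned to -0.0164 after median-of-ratios rescaling and ran from -0.0047 to 0.0257 with 1 library left out, PGK1 turned to 0.0219 and CA9 to 0.0671 with equal totals, and with 1 library left out CA9 ran from -0.103 to 0.0953, SLC7A11 from -0.379 to 0.188 and ATF3 from -0.307 to 0.0518, the last 2 positive without eKD1 replicate 1. Of 26 list medians 16 kept their sign in every setting and 10 did not. Equal totals put 76.9% of eKD2 calls higher, against 59.7% as deposited. Unknown depth and duplicates of 1 pool limit all values.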

Other observations

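Genes of respiration and of interferon response leaned down in eKD1 without a call. Over all genes kept 27.6% lay lower and 30% higher without overlap, and 11.8% were lower and 14% higher at an unadjusted p under 0.05 (limma). Of 38 nuclear genes of oxidative phosphorylation 0 were called by limma (14 lower and 1 higher at an unadjusted p under 0.05), 19 lay lower and 3 higher without overlap, and the median log2 change was -0.17 (-0.09 without control replicate 1 and -0.10 with equal FPKM totals). UQCRB, a subunit of complex III, was at 851 and 817 FPKM in control and 648 and 545 FPKM in eKD1 cells (log2 change -0.49, adjusted p = 0.0777). Of 10 interferon-response genes 6 were lower without overlap at a median log2 change of -0.40, and 0 were called (6 lower at an unadjusted p under 0.05). IFI44, an interferon-induced gene, was at 69.2 and 65.1 against 46.6 and 44.7 FPKM (log2 change -0.55, adjusted p = 0.0633).

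Other calls outside the lists were named after their values were seen. RDH10, which oxidises retinol, rose from 61.2 and 63.3 to 110.0 and 131 FPKM (log2 change 0.94, adjusted p = 0.0497), whereas CRABP1, a retinoic acid binding protein, fell from 162 and 165 to 111 and 113 FPKM (log2 change -0.54, adjusted p = 0.0492). SRSF3, a splicing factor, rose from 169 and 163 to 328 and 285 FPKM (log2 change 0.88, adjusted p = 0.0461) and SFPQ, a paraspeckle protein, from 229 and 232 to 356 and 329.7 FPKM (log2 change 0.57, adjusted p = 0.0492). MALAT1, a long nuclear RNA, fell from 244 and 291 to 102 and 101 FPKM (log2 change -1.39, adjusted p = 0.0350). LUC7L3, a splicing protein, fell from 671 and 594 to 397 and 399 FPKM (log2 change -0.67, adjusted p = 0.0492).

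APCDD1, a membrane inhibitor of Wnt signalling, rose from 421 and 408 to 775 and 754 FPKM (log2 change 0.88, SE 0.0468; adjusted p = 0.0171). KRT18, keratin 18, rose from 74.8 and 80.3 to 137 and 139 FPKM (log2 change 0.82, adjusted p = 0.0446). Over the 10 epithelial markers that include KRT18, the summed level was 90.4 and 89.1 FPKM in control and 147 and 152 FPKM in eKD1, with KRT5 and CDH16 at 0. KRT18 itself made up most of these sums. EPCAM was at 5.47 and 3.61 against 5.51 and 5.59 FPKM, and KRT8 overlapped at 5.12 and 2.88 against 2.86 and 6.81 FPKM. RRM2B, a p53-responsive ribonucleotide reductase subunit, fell from 34.1 and 30.7 to 15.3 and 16.0 FPKM (log2 change -1.005, adjusted p = 0.0461). It was the only call among 18 apoptosis and p53 genes, whose median log2 change of -0.06 turned to 0.01 with equal FPKM totals and was -0.03 without eKD1 replicate 1. JUN was the only call among 16 immediate early genes, at a median log2 change of 0.13 (0.07 without control replicate 2 and 0.19 with equal FPKM totals). In the lists of actin and adhesion (39 tested), cholesterol synthesis (24), axon and neural genes (27) and lysosome and autophagy (26), limma called 0 genes. At an unadjusted p under 0.05, 7, 5, 5 and 3 were higher and 8, 3, 3 and 3 lower (over all genes 14% and 11.8%). The list medians were 0.01, 0.04, 0.08 and 0.01. After median-of-ratios rescaling those of actin and lysosome turned to -0.01 and -0.01. With 1 library left out, the medians ran from -0.01 (without eKD1 replicate 2) to 0.03 (without control replicate 2) for actin, from -0.01 (without eKD1 replicate 2) to 0.14 (without eKD1 replicate 1) for cholesterol, from 0.04 to 0.05 for axon and neural genes (0.15 with equal FPKM totals), and from -0.08 (without control replicate 1) to 0.08 (without eKD1 replicate 1) for lysosome. Fibroblast markers summed to 655 and 677 FPKM in control and 687 and 649 FPKM in eKD1 cells, with POSTN at 0.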
